A study of Homo sapiens with 6 samples.

Results

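The 46 genes described here encode the machinery of macroautophagy and a set of lysosomal proteins. They were chosen by name for what their products do, with earlier results of these data known, and not by their own values on the arrays. A probe was assigned to a gene where the platform annotation gave it a single gene symbol, with older symbols updated. The 46 genes were measured by 67 of 31741 probes, against 18336 genes on the whole array. The cells were TFK-1, an established human line of extrahepatic cholangiocarcinoma, a carcinoma of the bile ducts outside the liver. HOXA5 cells carried HOXA5 overexpression and the other group was labelled Normal control, with 3 arrays each. The study introduced its vectors by lentivirus at a multiplicity of infection of 20 and selected stable lines with puromycin at 1 μg/ml, and its methods name a matching negative control virus. HOXA5 is a homeobox transcription factor, and the lentiviral copy carried a Flag tag. The promoter that drove the transgene was not given in the sources used here. The labels do not say whether the 3 arrays of a group came from separate cultures or transductions, and any p-value here reflects variation among these arrays alone, which may be technical.

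Autophagy encloses cytoplasm in a double membrane, the autophagosome, and delivers it to the lysosome for degradation. The ULK kinase complex starts the process, a lipid kinase complex built on PIK3C3 makes the phospholipid PI3P at the forming membrane, and WIPI proteins bind that lipid. A conjugation system then attaches ATG8 family proteins, LC3 and GABARAP, to the membrane, where cargo receptors bind them. Lysosomes hold acid hydrolases such as the cathepsins, glycoproteins that line the membrane, and exporters of cholesterol. TFEB and TFE3 are transcription factors that bind E-box elements in the promoters of many lysosomal and autophagy genes. Transcript levels do not measure autophagic flux, which was not assayed on these arrays.

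Array quality and identity were checked first. The median raw intensity was 95 to 177 on the HOXA5 arrays and 126 to 180 on the control arrays, and 17150 to 21154 probes per array carried the deposited flag 0, which is read here as detected because it began at raw intensities of 58 to 67. HOXA5 replicate 2 correlated with the other HOXA5 arrays at 0.973 and 0.979 over all probes, against 0.990 to 0.995 among the control arrays. The HOXA5 transcript, on the probe that was brightest over all arrays, measured 9.09, 8.97 and 8.97 in HOXA5 cells, against 7.10, 7.27 and 6.85 in control cells, in normalized log2 intensity, the scale of every level below. That is a log2 fold change of 1.94 ± 0.12 (SE; limma, adjusted p = 0.000766), while another HOXA5 probe fell by 0.34 ± 0.07 (limma, adjusted p = 0.0253). The part of the transcript that each probe detects was not given in the sources used here. Of 5 biliary epithelial markers measured, KRT19 and SOX9 rose, by 0.44 ± 0.07 (adjusted p = 0.0104) and 0.75 ± 0.10 (adjusted p = 0.00608). EPCAM (0.14 ± 0.19), KRT8 (-0.13 ± 0.17) and KRT7 (-0.19 ± 0.16) did not pass. Of 16 markers of leukocytes, fibroblasts, endothelium and hepatocytes, 7 were dim on all 6 arrays, among them PTPRC, DCN and ALB. Only 1 of the 16 passed the test, APOA1 at 0.89 ± 0.19 (adjusted p = 0.0279). COL1A1, CD14, CD68, VWF, SERPINA1 and APOA1 were detected on every array. The mean levels of COL1A1, CD14 and CD68 were above those of KRT7 and KRT8 in both groups.

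Promoter sequences are shown first for 7 members, the 6 whose promoter holds CACGTG and WIPI1, which holds none and was picked for its large rise. They are credited to RefSeq on GRCh38.p14 and are printed 5′ to 3′ on the strand of the gene, with CACGTG, the E-box core, in capitals. The LAMP1 window is chr13:113297039-113297258 on the plus strand and runs from 200 bases before the transcription start to 20 bases from it. The other windows run from 60 bases before the start to 20 bases from it. They are chr19:7522564-7522643 for MCOLN1 and chr20:45891275-45891354 for CTSA on the plus strand, and chr3:112561943-112562022 for ATG3, chr11:1763908-1763987 for CTSD, chr14:55411811-55411890 for ATG14 and chr17:68457477-68457556 for WIPI1 on the minus strand. LAMP1, MCOLN1, CTSA and ATG3 fell in HOXA5 cells, CTSD and ATG14 did not pass the test, and WIPI1 had the largest rise of the 46 genes. The other 3 members that fell, WIPI2, CTSZ and GLA, hold no copy either.
LAMP1: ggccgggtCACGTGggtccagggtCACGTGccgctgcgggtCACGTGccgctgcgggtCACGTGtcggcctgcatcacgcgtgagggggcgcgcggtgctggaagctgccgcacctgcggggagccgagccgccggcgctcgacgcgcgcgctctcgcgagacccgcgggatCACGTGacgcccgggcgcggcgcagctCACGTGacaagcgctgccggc
MCOLN1: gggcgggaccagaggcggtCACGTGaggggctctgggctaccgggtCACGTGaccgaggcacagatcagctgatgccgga
CTSA: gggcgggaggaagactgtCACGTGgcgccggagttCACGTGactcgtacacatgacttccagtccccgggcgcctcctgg
ATG3: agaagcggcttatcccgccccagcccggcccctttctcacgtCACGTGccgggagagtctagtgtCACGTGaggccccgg
CTSD: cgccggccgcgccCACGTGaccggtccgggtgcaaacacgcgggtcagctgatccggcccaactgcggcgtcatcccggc
ATG14: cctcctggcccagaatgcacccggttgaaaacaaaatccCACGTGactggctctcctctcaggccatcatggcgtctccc
WIPI1: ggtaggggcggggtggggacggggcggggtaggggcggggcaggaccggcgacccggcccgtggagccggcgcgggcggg

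Of the 46 genes, 13 rose (28.3%) and 7 fell (15.2%) in HOXA5 cells, and 26 did not pass the test. Here and below, a gene rose or fell where its brightest probe had an adjusted p under 0.05 in limma, adjusted over all 31741 probes. Over all 18336 genes, 13.1% rose and 11% fell, and among the 12754 genes detected on every array of at least 1 group, 17.1% rose and 15% fell. The set's share of genes that fell was therefore close to that of detected genes, and its share that rose was above it. Of the 46 members, 45 were detected by that criterion, all but ATG5. Changes of at least 2-fold were found for 6 genes that rose, against 3.83% of all genes, and for 1 that fell, against 2.39% of all genes. Of the 12754 detected genes, 698 rose and 438 fell by at least 2-fold. The median log2 fold change of the 46 genes was 0.09, against -0.01 over all genes and -0.03 over detected genes. The HOXA5 and control arrays did not overlap for 21 members, the 20 called genes and the cathepsin gene CTSH, and for 41.4% of all genes. Among the 12754 detected genes they did not overlap for 6240.

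The counts depended on single arrays. Leaving out control replicate 1, 2 or 3 left 7, 8 or 7 members that rose, where 7.56%, 9.11% and 8.18% of all genes rose, and 4, 5 or 3 members that fell, where 5.85%, 6.16% and 6.69% of all genes fell. Without HOXA5 replicate 1, 2 or 3, 9, 13 and 12 members rose, where 10.7%, 15.3% and 10.1% of all genes rose, and 5, 7 and 5 members fell, where 8.13%, 14.3% and 8.06% of all genes fell. The share of members that fell was thus near that of all genes without HOXA5 replicate 2 (15.2% against 14.3%). The same held without control replicate 3 (6.52% against 6.69%). The members' share was above that of all genes without control replicate 1 or 2 (8.7% and 10.9%). It was also above without HOXA5 replicate 1 or 3 (10.9% each). The balance of rises and falls moved with scaling, with 7 rises and 6 falls in the authors' scaled values and 3 rises and 0 falls with unscaled arrays (limma, 7 lower at an unadjusted p under 0.05). WIPI1, CTSB and OPTN passed the test under all 18 alternative settings, and ATG12, MAP1LC3B, PSAP, GLA and MCOLN1 were lost only where the arrays were not scaled to each other. Of the 18 settings, 14 ended the call of CTSL, 12 that of PIK3C3, 11 that of CTSA, 10 that of NPC1, 9 that of ATG2A and 8 that of ATG101. The calls of GABARAPL1, WIPI2 and ATG3 were each lost under 7, and those of TFE3, CTSZ and LAMP1 under 2. The direction of the 20 called genes did not change under any of the 18 settings.

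**Figure D1:**
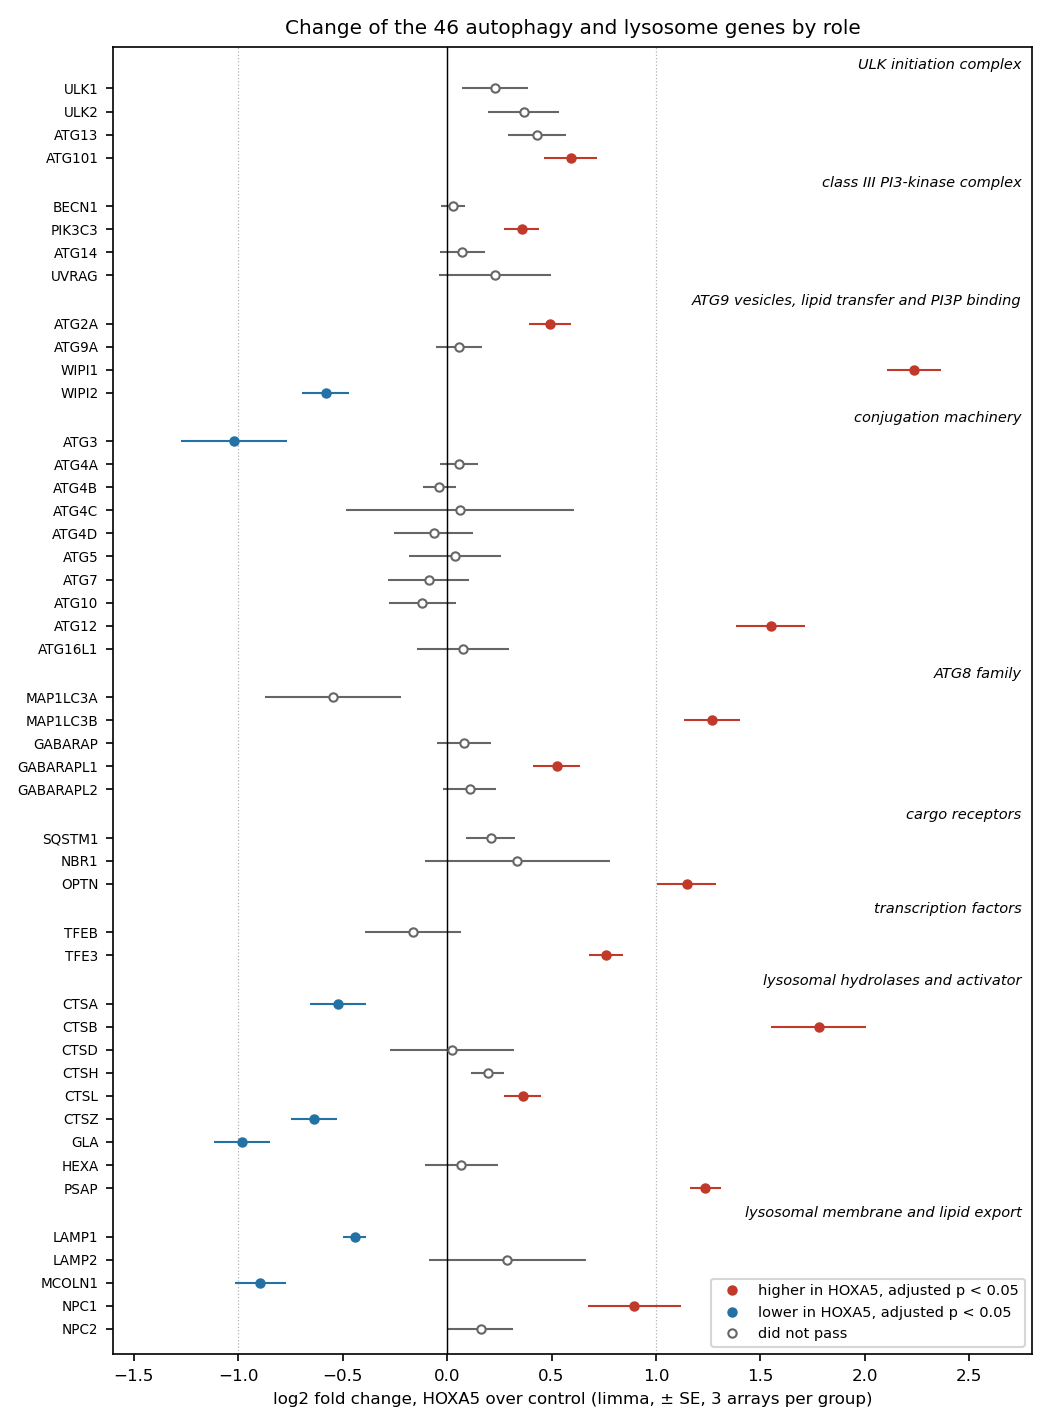
Log2 fold change of each of the 46 genes, HOXA5 over control, with its standard error from limma (3 arrays per group), ordered by role and coloured by call; dotted lines mark 2-fold. WIPI1 at 2.24 and CTSB at 1.78 lie farthest to the right, ATG3 at -1.02 lies farthest to the left, and the lysosomal hydrolases fall on both sides of 0.

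In the ULK complex, 1 of 4 genes rose. This was ATG101, which stabilizes ATG13 within the complex. Its level was 12.52, 12.80 and 12.48 in HOXA5 cells, against 11.92, 12.20 and 11.91 in control cells. Every HOXA5 array was above every control array, with a log2 fold change of 0.59 ± 0.13 (SE; 1.51-fold, adjusted p = 0.0270). The call was lost without HOXA5 replicate 1 (adjusted p = 0.0596), control replicate 1 (0.104) or control replicate 3 (0.0910). ATG13, the scaffold of the complex, measured 10.09, 10.14 and 9.75 in HOXA5 cells, against 9.47, 9.75 and 9.46 in control cells. The groups met at 9.75, with the highest control array just above the lowest HOXA5 array. The log2 fold change was 0.43 ± 0.14 (adjusted p = 0.0900), and the gene passed without HOXA5 replicate 3 (0.55, adjusted p = 0.0416). ULK1, the kinase itself, measured 10.03, 10.54 and 10.42 in HOXA5 cells, against 10.16, 10.23 and 9.92 in control cells. Those groups overlapped (0.23 ± 0.16, adjusted p = 0.395). Its paralog ULK2 had a log2 fold change of 0.37 ± 0.17 (adjusted p = 0.201), which was 0.55 (adjusted p = 0.0128) without HOXA5 replicate 2.

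The lipid kinase complex showed 1 rise among 4 genes. PIK3C3, the catalytic subunit also called VPS34, measured 10.87, 10.66 and 10.59 in HOXA5 cells, against 10.34, 10.36 and 10.36 in control cells. The groups did not overlap, and the difference was small at 0.36 ± 0.08 (1.28-fold, adjusted p = 0.0363). The call held under 6 of the 18 settings, and was lost with median scaling (adjusted p = 0.239) and without control replicate 1, 2 or 3 (0.122, 0.105 and 0.109). UVRAG, which marks the form of the complex that works on endosomes, varied widely between arrays, at 10.20, 9.53 and 10.45 in HOXA5 cells, against 9.74, 9.64 and 10.11 in control cells. Its log2 fold change was 0.23 ± 0.27 (adjusted p = 0.626). BECN1 and ATG14, the scaffold and the targeting subunit, did not pass the test either.

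The step that follows, lipid binding and lipid transfer at the growing membrane, held the largest change of the set. WIPI1, which binds PI3P there, had a level of 12.86, 12.72 and 12.50 in HOXA5 cells, against 10.40, 10.64 and 10.32 in control cells. The lowest HOXA5 array stood far above the highest control array. The means were 12.69 ± 0.18 in HOXA5 cells and 10.46 ± 0.16 in control cells (SD, n = 3 each), a log2 fold change of 2.24 ± 0.13 (4.71-fold, limma, adjusted p = 0.000672). Its paralog WIPI2, which recruits the ATG16L1 conjugation complex, went the other way on its brightest probe. That probe measured 11.54, 11.94 and 11.78 in HOXA5 cells, against 12.35, 12.39 and 12.27 in control cells. Its log2 fold change was -0.58 ± 0.11 (0.668-fold, adjusted p = 0.0189). A pair of further detected WIPI2 probes gave -0.06 ± 0.20 and -0.15 ± 0.16 and did not pass, and the mean over probes was -0.11 (adjusted p = 0.447). The WIPI2 call was also lost without HOXA5 replicate 3 (adjusted p = 0.0547) or control replicate 1, 2 or 3 (0.0745, 0.0716 and 0.0565). ATG2A, a lipid transfer protein that bridges the endoplasmic reticulum and the growing membrane, measured 10.58, 10.90 and 10.87 in HOXA5 cells, against 10.24, 10.29 and 10.34 in control cells. It rose by 0.49 ± 0.10 (1.41-fold, adjusted p = 0.0228), a call that was lost without HOXA5 replicate 3 (0.0702) or control replicate 1, 2 or 3 (0.0912, 0.0764 and 0.0654). ATG9A, the scramblase of the vesicles that seed the membrane, did not pass.

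The conjugation machinery, 10 genes, contained 1 rise and 1 fall, and its median change was within 0.01 of 0. ATG12, the ubiquitin-like protein that is joined to ATG5, measured 11.75, 12.10 and 11.78 in HOXA5 cells, against 10.37, 10.56 and 10.05 in control cells. The HOXA5 arrays were all higher, with means of 11.88 ± 0.19 in HOXA5 cells and 10.33 ± 0.26 in control cells and a log2 fold change of 1.55 ± 0.17 (2.93-fold, adjusted p = 0.00305). ATG3, the E2-like enzyme that passes LC3 to its lipid, measured 10.03, 9.73 and 10.41 in HOXA5 cells, against 11.36, 10.65 and 11.23 in control cells. The groups did not overlap, but both were spread widely, and the log2 fold change of -1.02 ± 0.25 (0.492-fold) had an adjusted p of 0.0416. That call was lost without HOXA5 replicate 1 or 2 (adjusted p = 0.112 and 0.0703) or control replicate 1 or 3 (0.137 and 0.125). Of the other 8 genes, the protease gene ATG4A measured 9.83, 9.76 and 9.79 in HOXA5 cells, against 9.80, 9.55 and 9.85 in control cells. Its groups overlapped (0.06 ± 0.09, adjusted p = 0.738). ATG10, the E2-like enzyme for ATG12, measured 7.78, 7.55 and 8.12 in HOXA5 cells, against 7.83, 7.90 and 8.09 in control cells, with a log2 fold change of -0.12 ± 0.16 (adjusted p = 0.680). ATG5, ATG7, ATG16L1 and the remaining ATG4 genes did not pass.

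Among the 5 ATG8 family genes, 2 rose. MAP1LC3B, which encodes the LC3 form used as the standard autophagosome marker, measured 12.27, 12.22 and 12.21 in HOXA5 cells, against 11.23, 10.93 and 10.73 in control cells. The HOXA5 arrays lay close together and all lay higher. Means were 12.23 ± 0.03 in HOXA5 cells and 10.96 ± 0.25 in control cells, a log2 fold change of 1.27 ± 0.13 (2.41-fold, adjusted p = 0.00284). GABARAPL1, of the GABARAP branch, measured 7.98, 7.94 and 8.26 in HOXA5 cells, against 7.39, 7.63 and 7.59 in control cells. It rose by 0.52 ± 0.11 (1.44-fold, adjusted p = 0.0275), and the call was lost without HOXA5 replicate 1 (0.0602) or control replicate 1, 2 or 3 (0.0930, 0.0643 and 0.0749). MAP1LC3A measured 7.87, 8.91 and 7.81 in HOXA5 cells, against 8.90, 8.84 and 8.48 in control cells. HOXA5 replicate 2 stood with the control arrays, the log2 fold change was -0.55 ± 0.33 (adjusted p = 0.319), and without that array it was -0.91 (adjusted p = 0.0145). GABARAP and GABARAPL2 did not pass.

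Of the 3 cargo receptors, OPTN rose. OPTN, optineurin, links ubiquitinated mitochondria and bacteria to LC3. Its level was 10.35, 10.27 and 10.58 in HOXA5 cells, against 9.02, 9.30 and 9.45 in control cells. The groups were well apart, with a log2 fold change of 1.15 ± 0.14 (2.21-fold, adjusted p = 0.00451). SQSTM1, the receptor p62 for ubiquitinated protein, measured 12.27, 12.16 and 11.97 in HOXA5 cells, against 11.77, 12.09 and 11.91 in control cells. Its means of 12.13 ± 0.15 in HOXA5 cells and 11.92 ± 0.16 in control cells differed by 0.21 ± 0.12 (adjusted p = 0.286). NBR1, which works beside p62, was the least even of the 3 over the arrays, at 11.12, 9.62 and 10.80 in HOXA5 cells, against 9.99, 9.87 and 10.68 in control cells. The difference of 0.33 ± 0.44 (adjusted p = 0.675) was smaller than its error.

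The paralogous transcription factors were called differently, though the difference between them was not tested. TFE3 measured 8.96, 9.24 and 9.06 in HOXA5 cells, against 8.31, 8.32 and 8.34 in control cells. All HOXA5 arrays were higher, and the log2 fold change was 0.76 ± 0.08 (1.69-fold, adjusted p = 0.00335). TFEB measured 9.74, 10.16 and 9.25 in HOXA5 cells, against 9.91, 9.97 and 9.77 in control cells. The HOXA5 arrays spanned the control arrays, with -0.16 ± 0.23 (adjusted p = 0.697), and another detected TFEB probe gave 0.36 ± 0.12 (adjusted p = 0.0857). TFE3 did not pass with unscaled arrays (adjusted p = 0.227) or with the authors' scaled values (0.0639), and TFEB had no settled direction.

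**Figure D2:**
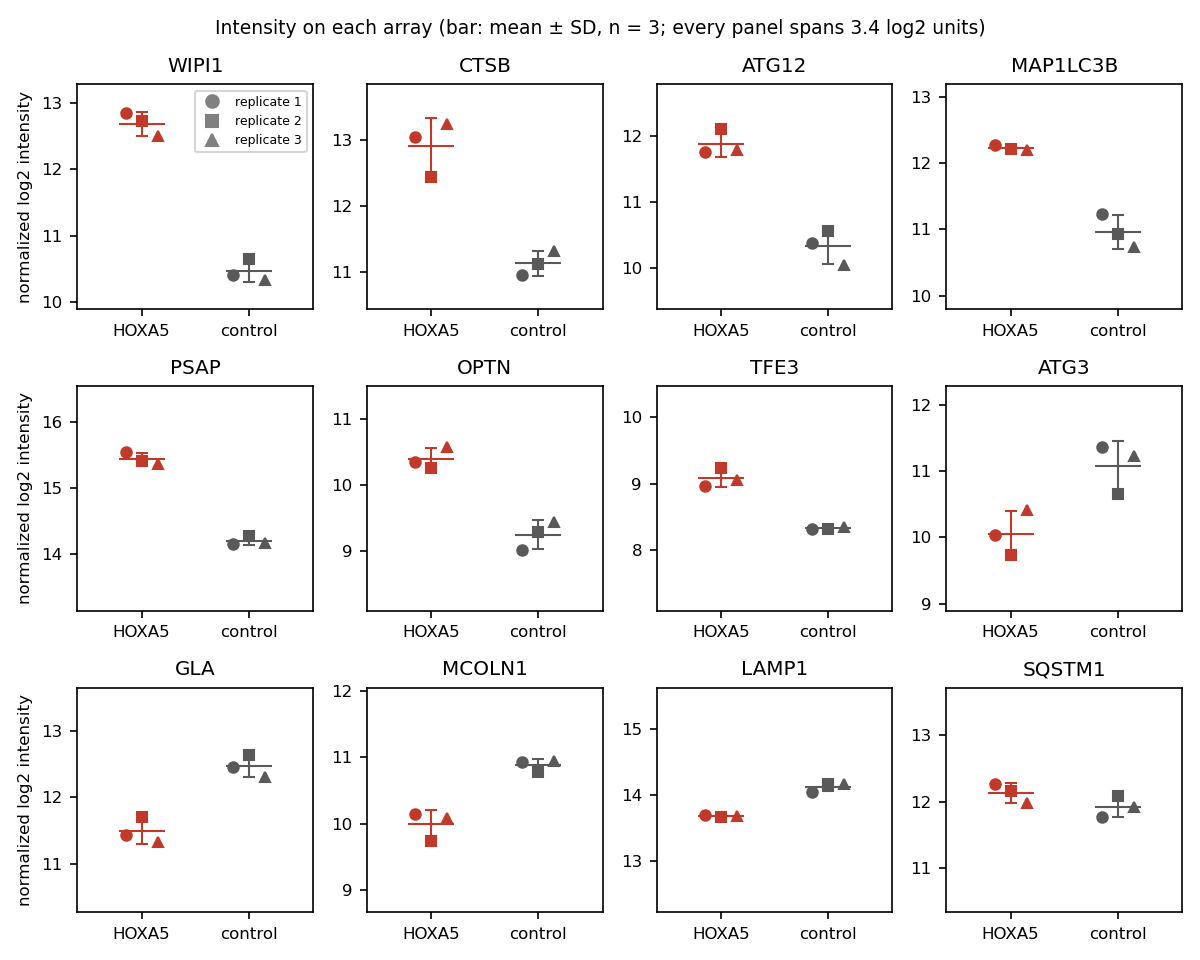
Normalized log2 intensity of 12 of the genes on each array, HOXA5 left and control right, with the mean and SD of 3 arrays as a bar and every panel spanning the same range. WIPI1, CTSB, ATG12, MAP1LC3B, PSAP, OPTN and TFE3 are higher on every HOXA5 array, ATG3, GLA, MCOLN1 and LAMP1 are lower on every HOXA5 array, and SQSTM1 overlaps.

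The 9 genes of lysosomal hydrolases and their activator divided evenly, with 3 that rose, 3 that fell and 3 that did not pass. CTSB, the cysteine protease cathepsin B, measured 13.05, 12.45 and 13.24 in HOXA5 cells, against 10.95, 11.13 and 11.33 in control cells. HOXA5 replicate 2 was the lowest of its group and still above every control array. Means were 12.91 ± 0.42 in HOXA5 cells and 11.14 ± 0.19 in control cells, a log2 fold change of 1.78 ± 0.23 (3.43-fold, adjusted p = 0.00517). PSAP, whose product is cut into saposins that activate sphingolipid breakdown, measured 15.54, 15.40 and 15.36 in HOXA5 cells, against 14.15, 14.28 and 14.16 in control cells. The arrays of each group lay close together, and the log2 fold change was 1.23 ± 0.07 (2.35-fold, adjusted p = 0.000759). CTSL, another cysteine protease, measured 12.41, 12.23 and 12.14 in HOXA5 cells, against 11.84, 11.98 and 11.87 in control cells. Its rise of 0.36 ± 0.09 (1.29-fold, adjusted p = 0.0396) passed under 4 of the 18 alternative settings, and was lost without HOXA5 replicate 1 or 2 (adjusted p = 0.0728 and 0.0565) or control replicate 1, 2 or 3 (0.135, 0.0746 and 0.123).

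GLA, alpha-galactosidase A, measured 11.43, 11.71 and 11.32 in HOXA5 cells, against 12.46, 12.63 and 12.31 in control cells. Every HOXA5 array was below every control array, with a log2 fold change of -0.98 ± 0.13 (0.506-fold, adjusted p = 0.00623). CTSZ, a cysteine carboxypeptidase, measured 8.02, 7.84 and 8.06 in HOXA5 cells, against 8.42, 8.74 and 8.67 in control cells. It fell by 0.64 ± 0.11 (0.642-fold, adjusted p = 0.0135), which was lost without control replicate 3 (adjusted p = 0.0553). CTSA, a serine carboxypeptidase that also protects beta-galactosidase and neuraminidase, measured 10.56, 11.03 and 10.81 in HOXA5 cells, against 11.37, 11.40 and 11.20 in control cells. Its groups lay close, the log2 fold change was -0.52 ± 0.13 (0.696-fold, adjusted p = 0.0463), and the call held under 7 of the 18 settings. Without HOXA5 replicate 1 or 3 its adjusted p was 0.0766 and 0.112, and without control replicate 1, 2 or 3 it was 0.152, 0.137 and 0.0841. The aspartic protease CTSD, the hexosaminidase subunit HEXA and CTSH did not pass.

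In the lysosomal membrane and lipid export group, 1 of 5 genes rose and 2 fell. LAMP1, a heavily glycosylated protein that lines the membrane, measured 13.70, 13.65 and 13.68 in HOXA5 cells, against 14.05, 14.16 and 14.16 in control cells. The difference was small but the arrays were tight, at 13.68 ± 0.02 in HOXA5 cells and 14.12 ± 0.06 in control cells (-0.44 ± 0.06, 0.735-fold, adjusted p = 0.00509). It did not pass with unscaled arrays (adjusted p = 0.135) or with intensities floored at 1 and no offset (0.0527). MCOLN1, the calcium channel of the lysosomal membrane, measured 10.14, 9.74 and 10.09 in HOXA5 cells, against 10.93, 10.78 and 10.94 in control cells. It was lower on every HOXA5 array, with a log2 fold change of -0.89 ± 0.12 (0.538-fold, adjusted p = 0.00648). NPC1, the membrane exporter of cholesterol, measured 10.97, 10.18 and 10.72 in HOXA5 cells, against 9.70, 9.55 and 9.94 in control cells. It rose by 0.90 ± 0.22 (1.86-fold, adjusted p = 0.0425). That call was lost without HOXA5 replicate 1 or 3 (adjusted p = 0.0956 and 0.115) or control replicate 1, 2 or 3 (0.137, 0.130 and 0.0753). NPC2, the soluble partner that hands cholesterol to NPC1, did not pass. LAMP2, the close relative of LAMP1 in the membrane, measured 11.81, 10.61 and 11.70 in HOXA5 cells, against 11.14, 10.68 and 11.44 in control cells, with a difference of 0.29 ± 0.38 (adjusted p = 0.672).

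Set side by side, the 27 genes of autophagosome formation (the ULK, lipid kinase, membrane, conjugation and ATG8 groups) had 7 that rose (25.9%) and 2 that fell (7.41%). The 14 genes of lysosomal proteins had 4 that rose (28.6%) and 5 that fell (35.7%). Over all genes 13.1% rose and 11% fell, and over detected genes 17.1% rose and 15% fell. The difference between the groups was not tested, because the members were chosen with results known. Leaving out control replicate 1, 2 or 3 left 3, 4 and 3 rises with 0, 1 and 0 falls in autophagosome formation (limma, 2 lower at an unadjusted p under 0.05 each time), and 2 rises with 4, 4 and 3 falls in lysosomal proteins. Of all genes, 7.56%, 9.11% and 8.18% rose and 5.85%, 6.16% and 6.69% fell under those settings. Without HOXA5 replicate 1 the counts were 5 rises and 1 fall in autophagosome formation and 2 rises and 4 falls in lysosomal proteins. Without HOXA5 replicate 2 they were 8 rises and 2 falls, and 3 rises and 5 falls. Without HOXA5 replicate 3 they were 7 rises and 1 fall, and 3 rises and 4 falls. Of all genes, 10.7%, 15.3% and 10.1% rose and 8.13%, 14.3% and 8.06% fell without HOXA5 replicate 1, 2 or 3. The median log2 fold changes, 0.07 for autophagosome formation and 0.11 for lysosomal proteins, had no settled sign. They were -0.043 for autophagosome formation and -0.10 for lysosomal proteins with unscaled arrays, and the median of lysosomal proteins was also below 0 with median scaling (-0.020), with the authors' scaled values (-0.035) and without HOXA5 replicate 2 (-0.048). Leaving out HOXA5 replicate 1 gave 0.14 for autophagosome formation and 0.22 for lysosomal proteins.

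The 26 genes that did not pass ranged in log2 fold change between -0.55 and 0.43. Of these, 20 were above 0 and 6 below, and 21 were within 0.25 of 0. For 6 of them the standard error was at least 0.25, namely ATG4C (0.55), NBR1 (0.44), LAMP2 (0.38), MAP1LC3A (0.33), CTSD (0.30) and UVRAG (0.27). Over the 3 HOXA5 arrays, 5 members spanned at least 1 log2 unit, 3 of them lowest and 2 highest on HOXA5 replicate 2, against 1 member over the control arrays. The median range over the arrays of a group was 0.39 in HOXA5 cells and 0.29 in control cells, against 0.32 in HOXA5 cells and 0.21 in control cells over all genes.

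Several probes measured 15 of the 46 genes, so that a call could be compared between probes. Of their 21 further probes, 14 were detected. These gave the same call as the brightest probe for 9, lost it for 4 and gained one for 1, and the opposite call was not seen. Both further ATG12 probes rose, at 0.98 ± 0.18 (adjusted p = 0.0175) and 0.34 ± 0.09 (adjusted p = 0.0491), less than the 1.55 of the brightest probe. The second OPTN probe rose by 1.29 ± 0.25 (adjusted p = 0.0192). For CTSB, 1 further probe rose by 1.24 ± 0.13 (adjusted p = 0.0026) and another gave 0.92 ± 0.36 (adjusted p = 0.141). The other ATG3 probe gave -0.92 ± 0.37 (adjusted p = 0.146), near the called value but with a larger error. The probe that gained a call was of ATG10, at -0.34 ± 0.09 (adjusted p = 0.0457), and the second ATG13 probe gave 0.60 ± 0.16 (adjusted p = 0.0538).

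**Figure D3:**
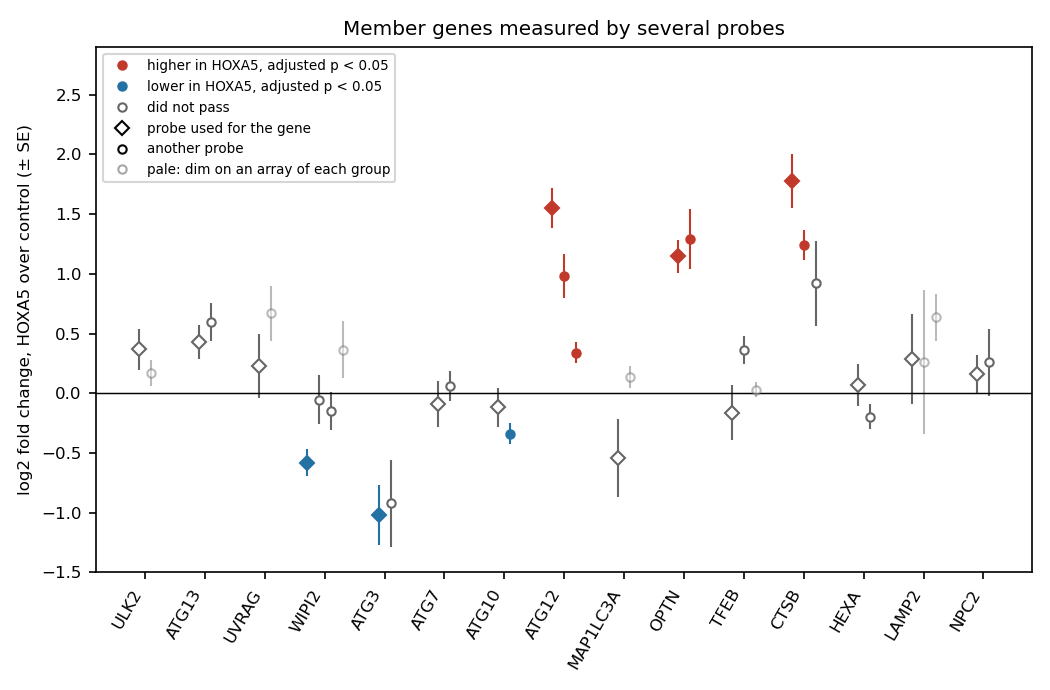
Log2 fold change with standard error of every probe of the 15 genes that several probes measured; diamonds are the probes used for the gene, circles the others, and pale points were dim on arrays of both groups. The probes of ATG12, OPTN, CTSB and ATG3 share a side of 0, while detected probes of TFEB lie on both sides. The detected WIPI2 probes lie below 0, and the WIPI2 probe above 0 is pale.

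Other genes of these pathways were read from lists of 143 further genes, of which 137 had a probe. In HOXA5 cells 31 of them rose (22.6%), 15 fell (10.9%) and 91 did not pass, against 13.1% of all genes that rose and 11% that fell. Of the 137 genes, 129 were detected, and over all detected genes 17.1% rose and 15% fell. Without HOXA5 replicate 3, 20 of the 137 rose and 8 fell, where 10.1% of all genes rose and 8.06% fell. Without control replicate 1, 2 or 3, 17, 17 and 16 of the 137 rose and 8, 5 and 6 fell. Of all genes, 7.56%, 9.11% and 8.18% then rose and 5.85%, 6.16% and 6.69% fell. Further cargo receptors had 5 that rose of 10. Further genes of autophagosome formation had 6 that rose and 1 that fell of 15, and further hydrolases and their cofactors had 12 that rose and 3 that fell of 35. Those 12 included IDS, which rose on its brightest probe (0.66 ± 0.17, limma, adjusted p = 0.0480). Another detected IDS probe fell (-0.66 ± 0.15, adjusted p = 0.0346), and a further one gave 0.20 ± 0.12 (adjusted p = 0.317). Among the MiT factors and the regulators of mTORC1, the kinase complex that restrains autophagy in fed cells, 3 rose and 7 fell of 23. The V-ATPase, the proton pump that acidifies lysosomes, had 2 that rose and 2 that fell of 18. Of 14 genes of autophagosome fusion, limma called 0 after adjustment, while 1 was higher and 2 were lower at an unadjusted p under 0.05. Further membrane and sorting proteins had 3 that rose and 2 that fell of 22.

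**Figure D4:**
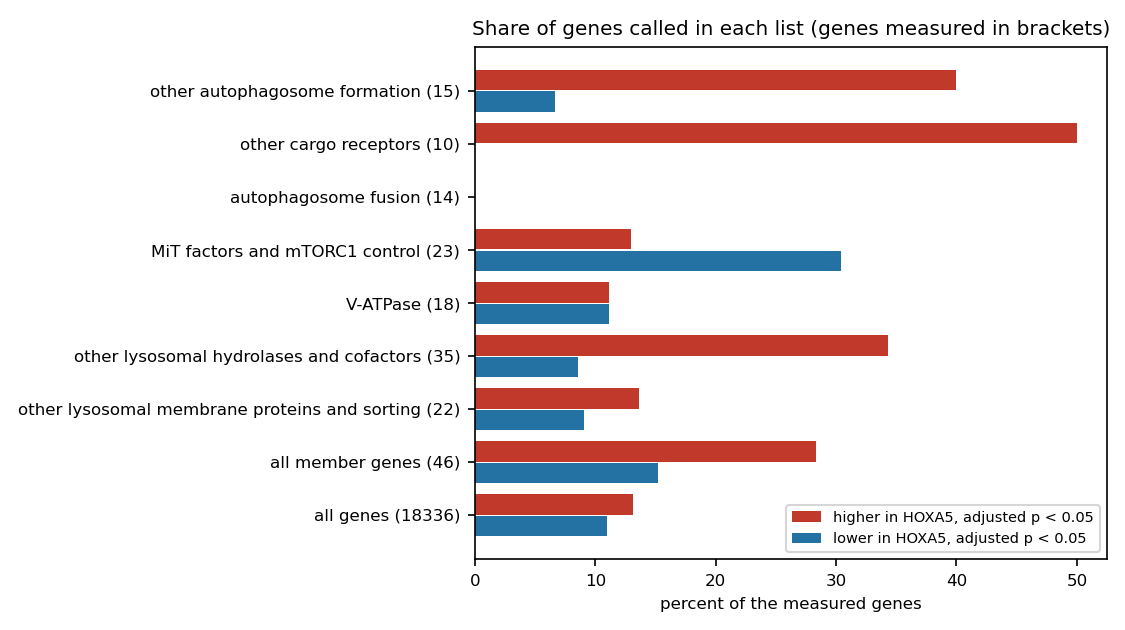
Percent of the measured genes in each list that rose or fell in HOXA5 cells at an adjusted p under 0.05, with the number of measured genes in brackets and all genes as the last row. Further cargo receptors (50% rose) and further autophagosome formation genes (40% rose) have the longest bars to the higher side, and the list of MiT factors and mTORC1 control (30.4% fell) has the longest lower bar.

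The largest rises of these further genes were in a mitophagy receptor, in membrane formation and in lysosomal hydrolases. BNIP3L, a receptor on mitochondria, measured 11.56, 11.06 and 11.84 in HOXA5 cells, against 9.73, 9.62 and 9.99 in control cells (1.71 ± 0.22, adjusted p = 0.0052). TMEM41B, a lipid scramblase of the endoplasmic reticulum, measured 11.46, 11.05 and 11.15 in HOXA5 cells, against 9.93, 9.86 and 9.76 in control cells (1.38 ± 0.12, adjusted p = 0.00188). In both, the HOXA5 arrays were more than 1 log2 unit above the controls. The hydrolase rises included IDUA, which degrades glycosaminoglycans, at 10.29, 10.89 and 10.56 in HOXA5 cells, against 8.93, 9.11 and 9.05 in control cells (1.55 ± 0.16, adjusted p = 0.00285). GAA, which breaks down glycogen, measured 13.53, 13.98 and 13.96 in HOXA5 cells, against 12.24, 12.57 and 12.41 in control cells (1.42 ± 0.16, adjusted p = 0.00329). LIPA, the acid lipase that frees cholesterol from its esters, measured 12.68, 12.49 and 12.59 in HOXA5 cells, against 11.29, 11.16 and 11.19 in control cells (1.37 ± 0.07, adjusted p = 0.000584). All 3 were bright and without overlap between groups. GM2A, the activator protein for ganglioside breakdown, measured 9.47, 9.05 and 9.55 in HOXA5 cells, against 7.98, 8.14 and 8.36 in control cells (1.20 ± 0.17, adjusted p = 0.00682). Another detected GM2A probe gave 0.66 ± 0.23 and did not pass (limma, adjusted p = 0.111). Both further detected TMEM41B probes rose, by 1.68 ± 0.13 and 1.32 ± 0.18.

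The falls among these further genes were led by NAGPA, which uncovers the mannose 6-phosphate tag that sorts hydrolases. It measured 8.68, 8.98 and 8.90 in HOXA5 cells, against 10.29, 10.33 and 10.18 in control cells (-1.42 ± 0.10, adjusted p = 0.00092). NPRL3, a subunit of the GATOR1 complex that inhibits mTORC1, measured 8.71, 8.54 and 8.64 in HOXA5 cells, against 9.56, 9.74 and 9.89 in control cells (-1.10 ± 0.10, adjusted p = 0.00215). RPTOR, the scaffold of mTORC1, and RHEB, its small GTPase activator, fell as well, so the genes that fell in that list included both activating and inhibiting parts of mTORC1 control. RPTOR measured 8.29, 7.96 and 8.62 in HOXA5 cells, against 9.35, 9.01 and 9.48 in control cells (-0.98 ± 0.20, adjusted p = 0.0244). RHEB measured 8.92, 8.63 and 8.32 in HOXA5 cells, against 9.60, 9.60 and 9.49 in control cells (-0.94 ± 0.16, adjusted p = 0.0120). Among hydrolases, ARSB, arylsulfatase B, measured 7.32, 7.29 and 7.66 in HOXA5 cells, against 8.34, 8.31 and 8.74 in control cells (-1.04 ± 0.16, adjusted p = 0.00927). PPT1, which removes palmitate from proteins, measured 10.60, 10.09 and 10.23 in HOXA5 cells, against 10.94, 10.87 and 11.06 in control cells (-0.65 ± 0.14, adjusted p = 0.0287). The RPTOR call was lost without HOXA5 replicate 1 (adjusted p = 0.0737) or control replicate 1 or 3 (0.0940 and 0.0799), and the RHEB call without control replicate 1 or 2 (0.0563 and 0.0506). PPT1 did not pass without HOXA5 replicate 3 (0.0857) or control replicate 1, 2 or 3 (0.0972, 0.0726 and 0.0952).

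The printed promoters belong to a search of the 39 members that matched the RefSeq promoter table, over 300 bases at each start, 250 before and 50 after it. Of the 39, 7 had several starts, and a gene held a motif if any of its windows did. Shares of all promoter sequences, here and below, are counted per sequence and not per gene. CACGTG, which reads the same on both strands, was found in 6 of the 39 (15.4%), against 11% of the 14641 tested genes with a promoter and 7.26% of all 35116 promoter sequences of that length. LAMP1 held 6 copies, at -192, -176, -159, -142, -28 and -1 relative to the start. Of the 6 genes with the motif, 4 fell (ATG3, CTSA, LAMP1 and MCOLN1) and 2 did not pass, and their median log2 fold change was -0.48. Of the 33 without it, 11 rose and 3 fell (WIPI2, CTSZ and GLA), with a median of 0.20. CTSB and PSAP, which also rose, had no matched promoter and were not searched. Among all tested genes, 12.1% of those with CACGTG rose and 15.8% fell, against 13.1% and 11.1% of those without. The number of the 6 that passed as lower was 2 to 3 when a single array was left out (2 without HOXA5 replicate 1, control replicate 1 or control replicate 3) and 0 in limma with unscaled arrays, where all 6 were below 0 and 4 were lower at an unadjusted p under 0.05.

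Longer forms of the element were rarer. TCACGTGA, which contains CACGTG, was found in 4 members (10.3%), the same 4 that held CACGTG and fell, against 1.71% of tested genes, of which 11.6% rose and 19.5% fell. Among the further genes, 13 of 111 held it (11.7%), with 1 that rose and 1 that fell (7.69%), against 12.2% that fell of those without it. In the 250 bases before the start alone, TCACGTGA was found in 3 members (7.69%), CTSA, LAMP1 and MCOLN1, against 1.54% of tested genes. The ATG3 copy lay after the start. The full palindrome of the CLEAR element, which TFEB and TFE3 bind, contains both shorter forms. Among the members it was found in MCOLN1 (2.56%), against 0.663% of tested genes and 0.353% of all promoter sequences. It was found in 6 of the further genes, of which 1 rose and 5 did not pass. Of the 111 further genes with a promoter, 29 held CACGTG (26.1%), with 3 that rose (BNIP3, GAA and NEU1) and 5 that fell, while of the 82 without it 23 rose and 8 fell. Their median log2 fold changes were 0.036 with CACGTG and 0.15 without it. A match is a description of the letters in a window and does not show binding, which was not analysed here.

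**Figure D5:**
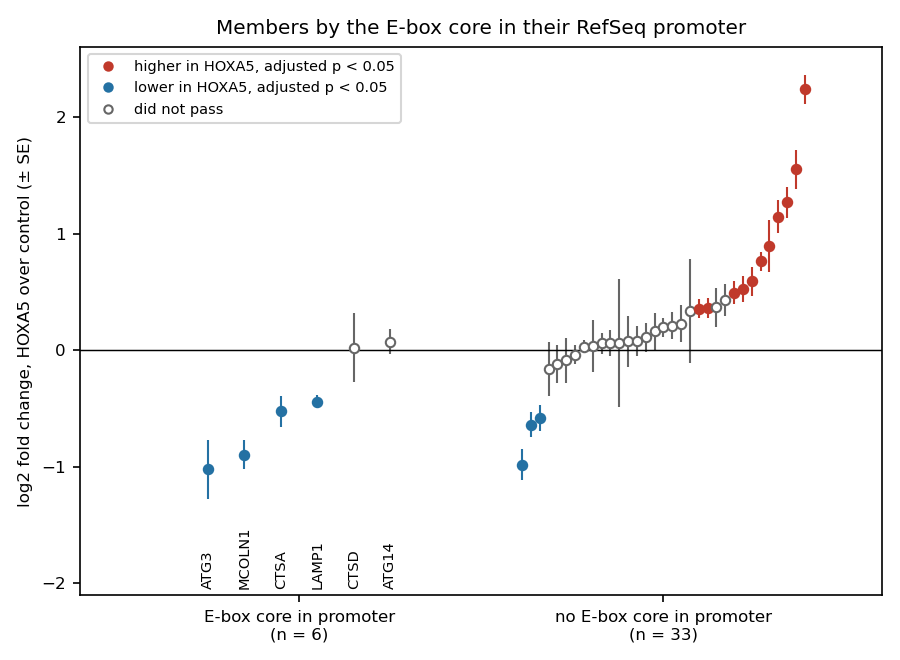
Log2 fold change with standard error of the 39 members with a RefSeq promoter, those whose promoter holds the E-box core on the left and those without it on the right, each ordered by value and coloured by call. The left group has 4 genes below 0 that passed the test and 2 near 0, and the 11 plotted genes that rose are all on the right. CTSB and PSAP, which also rose, had no matched promoter and are not shown.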

How the data were processed

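TFK-1 RNA was labelled with Cy5 and hybridized to 1-colour Human OneArray arrays, 3 per group. The deposited table holds raw scanner intensity per probe, flags and intensity that the authors had scaled in GeneSpring GX. On each array the scaled values equalled the raw values times 1 constant, whose derivation is not given in the sources used here. The deposited detection p-values, 1 per probe and array, were not used. No per-sample column was left out.

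An offset of 50 was added to raw intensity, the sum was floored at 1, and log2 values were quantile normalized between arrays. limma 3.58.1 in R 4.3.3 (lmFit, eBayes) tested HOXA5 over control for all 31741 probes, two-sided, with Benjamini-Hochberg adjustment over all of them. A gene was read by its brightest probe over the 6 arrays. Of the probes, 24740 had 1 gene symbol, 977 several and 6024 none, and 1948 symbols were updated. A probe without flag 0 is called dim, and no member probe was saturated (65000 or above). The number of arrays limits the precision. The script was tested on simulated data.

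The members and lists were chosen with earlier results of these data known. Values on each array are given for members past the test with at least a 2-fold change, for up to 2 others per role by smallest p, for TFEB and TFE3, and for the 6 largest rises and 6 largest falls of the further genes among those past the test whose groups did not overlap. Values of the remaining called members and of ULK1, ULK2 and LAMP2 were added for completeness after their values were seen. Promoters of 39 members matched the RefSeq table (GRCh38.p14). UVRAG, ATG4D, MAP1LC3A, CTSB, HEXA, PSAP and LAMP2 did not. Alternatives were other scalings, offsets and filters, another variance model, the methods' t-test, a replicate block, means over probes and leaving out each array.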

Additional observations from a re-analysis of the deposited data

How the results depend on the processing

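Between alternative settings the median change over all genes moved by at most 0.07 on the log2 scale. With no scaling between arrays, 3 members rose and limma called 0 lower (7 at an unadjusted p under 0.05), where 1.41% of all genes rose and 1.33% fell, 2 and 3 of the further genes rose and fell, and the median of the 46 members was -0.041. With the authors' scaled values, 7 members rose and 6 fell (5.79% and 5.71% of all genes), 10 and 5 further genes rose and fell, and the members' median was 0.018. It was 0.037 with median scaling. The methods' t-test with Benjamini-Hochberg adjustment called 7 members higher and 4 lower (8.67% and 6.5% of all genes), and 18 and 5 further genes (13 and 7 members, and 37 and 20 further genes, at P under 0.05). With intensities floored at 1 and no offset, 7 further genes fell, where 8.49% of all genes fell. The count of members at least 2-fold lower ranged between 0 and 2. Leaving out single arrays gave 7 to 13 members higher and 3 to 7 lower, 16 to 38 further genes higher and 5 to 22 lower, and a members' median of 0.12 to 0.15. Over all genes these settings gave 7.56% to 15.3% higher and 5.85% to 14.3% lower. The cause of these shifts was not tested. Directions turned under at least 1 setting for 17 of the 46 members, all of them uncalled, CTSD and ATG14 included. Of those whose values are given, ATG4A was -0.043 with no scaling and -0.035 without control replicate 2, ATG10 lay between -0.27 without HOXA5 replicate 3 and 0.012 without HOXA5 replicate 2, and TFEB was 0.10 as a mean over probes and lay between -0.39 without HOXA5 replicate 2 and 0.070 without HOXA5 replicate 3.

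Deviations from the group mean correlated at -0.11, 0.57 and 0.64 between same-numbered arrays of replicates 1, 2 and 3. Between arrays of different number the correlations lay between -0.68 and 0.35. The labels do not say whether same-numbered arrays were handled together, and this was not tested. With the replicate block, 12 members rose and 7 fell, with PIK3C3 and CTSL lost and ATG13 gained at an adjusted p of 0.0421. Of all genes 14.7% rose and 13.9% fell, near the members' 15.2% that fell. Of the further genes 35 rose and 22 fell.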

Other observations

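TGATGCAA, a composite element bound by ATF4 with C/EBP factors, was found in 0 of the 39 member promoters on either strand. It was found in 0.929% of tested genes and 0.866% of all promoter sequences. Of the further genes that rose, ARSA was dim on all 3 control arrays, so its fold change is not given.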
